A study of Homo sapiens with 6 samples.

Results

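The guanylate-binding proteins are large GTPases, here the 5 genes GBP1, GBP2, GBP3, GBP4 and GBP5. They were chosen by symbol from the 29845 genes in the deposited table of reads. All 5 had a mean of at least 10 reads over the 6 libraries and were among the 16472 genes tested. GBP1, GBP3, GBP4 and GBP5 were lower in the TFAM-OE-labelled libraries, at between 15.3% and 49.1% of the control level, and GBP2 did not pass the test. The 15.3% belongs to GBP5, which had 4 reads in each TFAM-OE-labelled library and reached 10 reads only through the controls. The 49.1% belongs to GBP3, which sat at the 2-fold threshold and lost its call under some processing alternatives.

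Guanylate-binding proteins belong to the dynamin superfamily and are among the most strongly interferon-induced proteins of human cells. They bind and hydrolyse GTP, assemble on the surface of intracellular bacteria and on pathogen-containing vacuoles, and help inflammatory caspases to reach bacterial lipopolysaccharide. GBP1, GBP2 and GBP5 end in a motif that receives a prenyl lipid anchor, whereas GBP3 and GBP4 do not. Their transcription is switched on by interferon gamma through gamma-activated sites, and by type I and III interferons through interferon-stimulated response elements. Epithelial cells, including those of the lung, carry this response.

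The libraries were made from polyadenylated RNA of A549, an established human lung epithelial cancer cell line. Control cells (Ctrl, n = 3) received an empty pIRES-hrGFP-1a plasmid, and TFAM-OE cells (n = 3) received the same plasmid carrying FLAG-tagged TFAM, which encodes a protein that packages and transcribes mitochondrial DNA. Both groups therefore went through lipid transfection and carried the plasmid backbone. The transfection was transient, nothing states that transfected cells were sorted or selected, and the study calls the 3 libraries of a group biological replicates.

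Library totals ran from 26650854 to 37321956 reads. TFAM itself had 2555, 1878 and 2663 reads in control libraries 1, 2 and 3 and 2291, 2808 and 2492 reads in TFAM-OE-labelled libraries 1, 2 and 3. At the gene level this was a 1.06-fold difference (95% interval 0.914 to 1.23, edgeR adjusted p = 0.626), and the groups overlapped. The reads thus did not show the labelled overexpression, so each direction below is stated for the libraries by their label. The study assessed the tagged protein by western blot, which these files do not measure, and whether plasmid-derived reads were counted was not tested. Of 6 markers of A549 cells, the most abundant, AKR1B10, had a mean of 1864 CPM in control libraries and 2120 CPM in the TFAM-OE-labelled libraries. Only ALDH3A1 passed the test, at a log2 fold change of 0.59 (edgeR adjusted p = 0.0130), and AKR1C1 was lowest at -0.52 (0.0527). The immune markers summed to 3.60 to 5.04 CPM against 2.91 to 3.63 CPM, nearly all of it ITGAM, and the stromal and endothelial markers to 4.55 to 4.89 CPM against 2.79 to 4.996 CPM, nearly all of it COL1A1. CPM stands for reads per 1000000 after edgeR's TMM scaling of the libraries.

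The 5 genes lie in 1 cluster on the minus strand of chromosome 1 (GRCh38, GENCODE 44 gene limits), with GBP7 between GBP2 and GBP4. GBP3 (ENSG00000117226) spans chr1:89006679-89022894 and GBP1 (ENSG00000117228) spans chr1:89051882-89065360. GBP2 (ENSG00000162645) spans chr1:89106132-89150456, GBP4 (ENSG00000162654) chr1:89181144-89198942 and GBP5 (ENSG00000154451) chr1:89256189-89272860. Promoter sequences from RefSeq (GRCh38.p14, 250 bases before to 50 after the start site) were matched for 3 members, GBP1, GBP3 and GBP4, and not for GBP2 and GBP5. They were searched for GAAANNGAAA, the paired half-sites of the interferon-stimulated response element, which reads TTTCNNTTTC on the other strand. Each of the 3 held 1 match, against 3.57% of 35116 promoters of the same length. The sequences are shown because they are the stretches of these members' start regions that carry the interferon-type motif. Each is 30 bases on the gene's own strand with the match in capitals.
GBP1, chr1:89065316-89065345: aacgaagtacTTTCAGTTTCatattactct
GBP3, chr1:89022845-89022874: aaagaagtacTTTCAGTTTCattaggctct
GBP4, chr1:89198927-89198956: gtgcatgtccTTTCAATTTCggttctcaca

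Counted from +1 at the RefSeq start, the match lay at -127 to -118 in GBP1, at 3 to 12 in GBP3 and at -4 to 6 in GBP4. The GBP1 and GBP3 windows shared an unbroken run of 19 bases, gaagtacTTTCAGTTTCat, while either shared at most 6 with the GBP4 window. In GENCODE, the GBP1 match falls in the non-coding first exon of transcripts that begin further upstream, the GBP3 match in the 5′ untranslated region of the first exon, and the GBP4 match across the transcript start, where a lncRNA is annotated on the opposite strand. A symmetric form of the gamma-activated site, TTCNNNGAA, which is its own reverse complement, matched 1 time in the GBP3 promoter, at -15 to -7. This form had no match in the GBP1 and GBP4 windows and was present in 7.66% of all promoters. Looser forms of the site were not searched, so the lack of a match does not show that the site is absent. A match describes letters in the window and not binding.

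The question was which members differed between the groups. A gene was called when the edgeR quasi-likelihood test gave an adjusted p below 0.05 over all genes tested and the fold change was at least 2 or at most 0.5. By that rule 4 of 5 members were lower, against 2.09% of all genes tested, and 0 of 5 were higher, against 0.449%. On the adjusted p alone 4 members were again lower, against 4.88% of genes, and 0 were higher, against 3.52%. Every TFAM-OE-labelled library lay below every control library for 4 members, which held for 15.9% of genes. The median log2 fold change of the 5 members was -1.81, and that of all genes tested was -0.01. GBP5 reached the minimum of 10 reads only through the control libraries, where it was higher. Of the 4 members at or above that minimum in each group, 3 were called.

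GBP1, a prenylated member, binds bacterial lipopolysaccharide directly and starts the coat to which other family members are recruited. It had 935, 718 and 923 reads in control libraries 1, 2 and 3, and 208, 223 and 162 reads in TFAM-OE-labelled libraries 1, 2 and 3. The groups were far apart and each was tight. Mean level was 26.6 ± 1.34 CPM (SD, n = 3) in control libraries and 6.01 ± 0.568 CPM (SD, n = 3) in the others. The edgeR log2 fold change was -2.14 (SE 0.13, adjusted p = 1.82e-05), a 4.42-fold lower level with a 95% interval of 3.63 to 5.38. GBP1 stood at place 11 of the 16472 genes when ordered by p. In bulk RNA, fewer cells expressing a gene and less RNA per cell cannot be told apart, and this applies to every member. The p-values describe the spread between these libraries.

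GBP2, which carries a geranylgeranyl anchor and joins GBP1 on bacterial surfaces, had 238, 191 and 194 reads in control libraries 1, 2 and 3. It had 158, 216 and 138 reads in TFAM-OE-labelled libraries 1, 2 and 3. The groups overlapped, with TFAM-OE-labelled library 2 at 5.94 CPM above control library 3 at 5.29 CPM. Mean level was 6.50 ± 1.05 CPM (SD, n = 3) against 5.16 ± 0.696 CPM (SD, n = 3). The edgeR log2 fold change was -0.33 (SE 0.17, adjusted p = 0.266). The 95% interval of the fold, 0.609 to 1.04, ran from well below the control level to just above it, so equality was not shown.

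GBP5, a geranylgeranylated member described as an aid to inflammasome assembly and, with GBP2, as an inhibitor of the protease furin, was the least abundant. It had 40, 20 and 19 reads in control libraries 1, 2 and 3 and 4 reads in each TFAM-OE-labelled library. No library of one group reached the other group, although the controls varied by 41.8% (CV), against the 19.5% that counting alone gives. Over each group, 79 reads against 12 reads corresponded to 0.814 CPM (exact Poisson 95% interval 0.645 to 1.01) and 0.122 CPM (0.0631 to 0.213), intervals that cover counting error only. The edgeR log2 fold change was -2.70 (SE 0.45, adjusted p = 0.00809), with a fall of 6.52-fold and a 95% interval of 3.23 to 13.1. Without control library 1, the highest, the log2 fold change was -2.31 and the adjusted p was 0.0387. Of the members it had the lowest fitted ratio and the widest interval, and its interval overlapped that of GBP1.

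GBP3 and GBP4 lack the prenylation motif and are recruited to bacteria behind GBP1. GBP3 had 395, 343 and 341 reads in control libraries 1, 2 and 3 and 147, 201 and 195 reads in TFAM-OE-labelled libraries 1, 2 and 3. The groups did not overlap. Mean level was 11.3 ± 1.80 CPM (SD, n = 3) against 5.54 ± 0.946 CPM (SD, n = 3). The edgeR log2 fold change was -1.02 (SE 0.18, adjusted p = 0.00908), a 2.03-fold lower level with a 95% interval of 1.55 to 2.67. That fold sits at the 2-fold threshold. The call was lost without control library 1 (adjusted p = 0.0588), control library 2 (0.0639), TFAM-OE-labelled library 2 (0.0528) or, by its log2 fold change of -0.91 alone, TFAM-OE-labelled library 1. It was also lost on log2(FPKM + 1), at -0.71, and with the replicate number as a block (edgeR adjusted p = 0.0596).

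GBP4 had 108, 108 and 133 reads in control libraries 1, 2 and 3 and 41, 41 and 20 reads in TFAM-OE-labelled libraries 1, 2 and 3. The groups were well separated, and TFAM-OE-labelled library 3 was the lowest. Mean level was 3.63 ± 0.409 CPM (SD, n = 3) against 1.03 ± 0.321 CPM (SD, n = 3). The edgeR log2 fold change was -1.81 (SE 0.24, adjusted p = 0.00281), a 3.50-fold lower level with a 95% interval of 2.41 to 5.08.

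**Figure D1:**
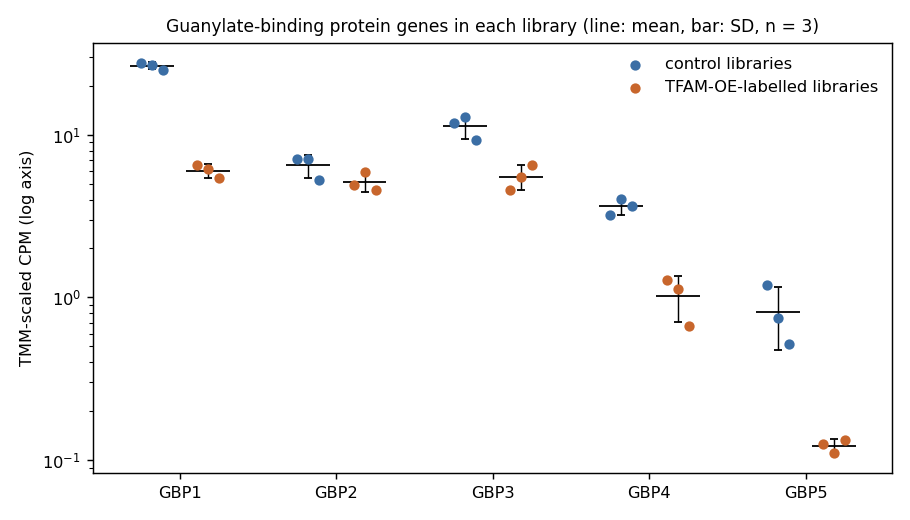
TMM-scaled CPM on a log axis for the 5 genes, with 1 point per library, a line at the mean and a bar of 1 SD (n = 3 per group). Control and TFAM-OE-labelled points are apart for GBP1, GBP3, GBP4 and GBP5 and interleave for GBP2, where the means are 6.50 and 5.16 CPM.

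The direction was the same under all 17 processing alternatives tried for every member. GBP1 stayed between -2.20 and -1.67 on the log2 scale, and GBP2 between -0.46 and -0.24 with adjusted p between 0.147 and 0.568. Fits on log2(FPKM + 1) gave smaller differences for the low members, -0.40 for GBP4 and -0.36 for GBP5, since that pseudocount exceeds their FPKM in every library. FPKM, fragments per kilobase of transcript and per 1000000 mapped fragments, is the authors' level per length.

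**Figure D2:**
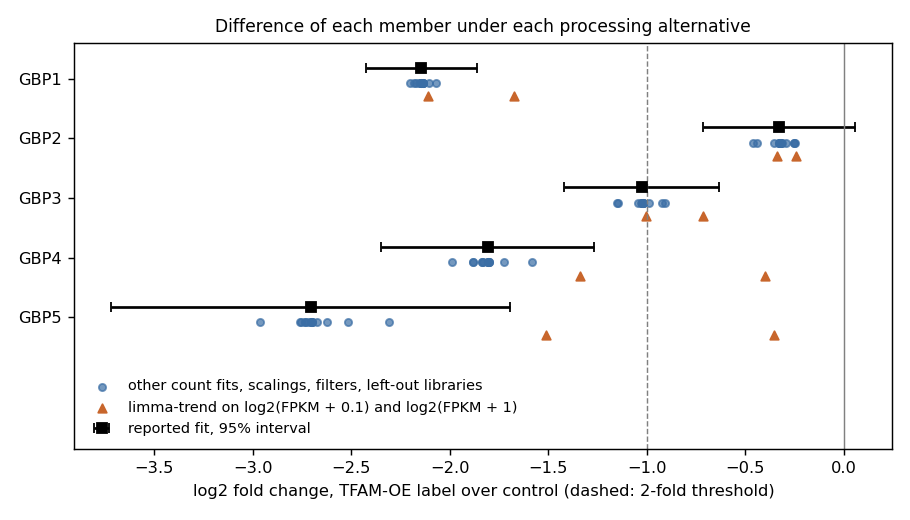
Log2 fold change of the TFAM-OE-labelled libraries over control for each gene, with the reported fit as a square with its 95% interval, other count-based fits as circles and fits to log2 FPKM as triangles. All points lie below 0. GBP3 clusters at the dashed line of a 2-fold difference, with a reported value of -1.02.

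The make-up of the family's reads differed as well. Summed over the 5 members, the level was 51.1, 51.5 and 43.9 CPM in control libraries 1, 2 and 3 and 17.5, 18.8 and 17.3 CPM in the TFAM-OE-labelled libraries, a ratio of means of 0.366. GBP1 accounted for 66.5% of that difference, GBP3 for 18.6%, GBP4 for 8.39%, GBP2 for 4.33% and GBP5 for 2.25%. GBP1 held 54.5%, 52.0% and 57.3% of the family's reads in the control libraries and 37.3%, 32.6% and 31.2% in the others. The GBP2 share was 13.9%, 13.8% and 12.0% in the control libraries and 28.3%, 31.5% and 26.6% in the TFAM-OE-labelled libraries. Neither of these shares overlapped between groups. The GBP3 share, 21.2% to 24.9% against 26.3% to 37.6%, and the GBP5 share, 1.18% to 2.33% against 0.584% to 0.771%, did not overlap either. Only the GBP4 share did. Shares sum to a fixed whole, so a higher share of GBP2 is not a higher level of GBP2.

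**Figure D3:**
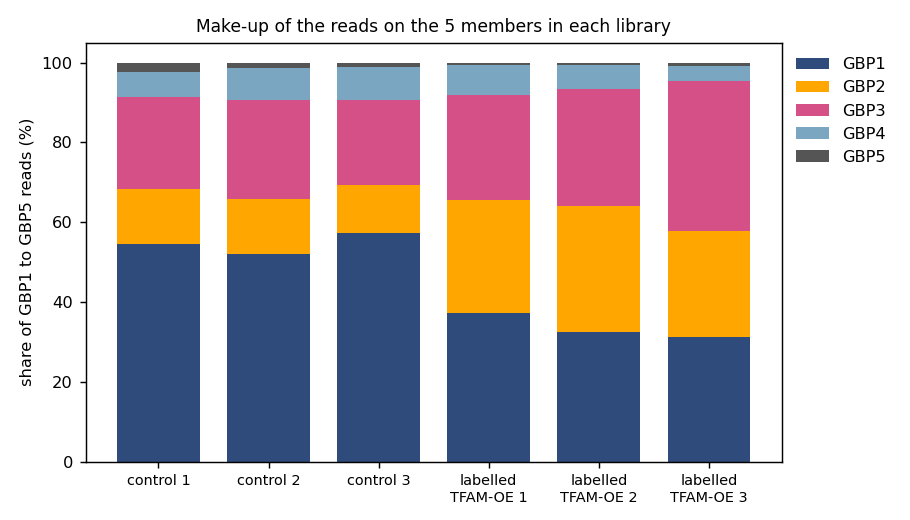
Share of the reads on the 5 genes held by each gene, as stacked bars from 0 to 100% for each library. GBP1 takes over 50% of each control bar and under 40% of each TFAM-OE-labelled bar, where GBP2 and GBP3 are wider.

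Ratios of reads between members within a library need no scaling between libraries. There were 10 pairs, each tested by a two-sided exact permutation of log2 ratios over the 6 libraries, for which 0.1 is the smallest p that 3 against 3 allows. The GBP2 to GBP1 ratio was 0.255, 0.266 and 0.210 in control libraries 1, 2 and 3 and 0.760, 0.969 and 0.852 in the TFAM-OE-labelled libraries. That is 3.53 times higher in the latter (exact permutation p = 0.1, adjusted over the 10 pairs 0.167). The GBP3 to GBP1 ratio ran from 0.369 to 0.478 in control libraries and from 0.707 to 1.204 in the others, 2.17 times higher with the same exact permutation p. GBP2 was higher in the TFAM-OE-labelled libraries relative to each of the other members, by 1.62 times against GBP3, 2.91 times against GBP4 and 5.02 times against GBP5. The ratio of GBP3 to GBP5 was 3.09 times higher. In these 6 pairs the groups did not overlap, but no p could pass 0.05 at this size. The 10 ratios are built from the same members and restate their differing fold changes, so they are not separate results. How often pairs of other genes fail to overlap was not computed. In the other 4 pairs the groups overlapped. The GBP4 to GBP1 ratio differed by 1.21 times and the GBP1 to GBP5 ratio by 1.42 times (exact permutation p = 0.3 and p = 0.2). Every ratio to GBP5 rests on 4 GBP5 reads in each TFAM-OE-labelled library. GBP5 also reached the minimum of 10 reads only through the control libraries, so these ratios are the least certain.

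Levels can be ordered between members only per length. In control libraries the mean FPKM was 7.497 ± 0.575 for GBP1, 3.15 ± 0.541 for GBP3, 2.51 ± 0.452 for GBP2, 0.503 ± 0.0513 for GBP4 and 0.353 ± 0.153 for GBP5 (SD, n = 3). By FPKM, GBP1 stood clear of the rest, while GBP3 overlapped GBP2 and GBP4 overlapped GBP5. In the TFAM-OE-labelled libraries the mean FPKM was 1.95 ± 0.241 for GBP2, 1.66 ± 0.0721 for GBP1, 1.53 ± 0.341 for GBP3, 0.140 ± 0.0361 for GBP4 and 0.0533 ± 0.00577 for GBP5 (SD, n = 3). GBP3 overlapped both GBP2 and GBP1 there.

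The place of GBP2 at the head of that order depended on the length used, and so did some of the overlaps. Reads and FPKM together imply a length for each gene relative to GBP1, which was 0.731 for GBP2, 1.01 for GBP3, 2.03 for GBP4 and 0.653 for GBP5. The lengths of the main GENCODE transcripts relative to GBP1 were 1.42, 1.05, 2.13 and 2.36. With the GENCODE lengths, the TFAM-OE-labelled libraries had 2.09 ± 0.197 CPM per kilobase for GBP1, 1.82 ± 0.312 for GBP3 and 1.26 ± 0.170 for GBP2. By these lengths GBP3 did not overlap GBP2 in either group, with control means of 3.72 ± 0.593 and 1.59 ± 0.257 CPM per kilobase. Nor did GBP4 overlap GBP5 in control libraries, at 0.590 ± 0.0666 and 0.120 ± 0.0502. GBP1 led in control libraries with either length, at 9.23 ± 0.466 CPM per kilobase. The differences between groups do not involve length.

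The family arose by duplication, so reads could be shared between copies. No window of 150 bases in the main transcript of any member was identical to one in another family transcript. Allowing 4 mismatches, as the authors' alignment did, 14.1% of GBP1 windows came within reach of another family transcript, mainly the pseudogene GBP1P1 (11.3%) and GBP3 (4.83%). The share was 5.09% for GBP3, 2.34% for GBP2 and 0% for GBP4 and GBP5. Kept reads were those that mapped uniquely, and the origin of GBP1 and GBP3 reads from those windows is less certain. GBP1P1 itself had 9, 8 and 10 reads in control libraries and 1, 0 and 2 in the TFAM-OE-labelled libraries, below the minimum for the test. In the alternative edgeR fit to every gene with at least 1 read, GBP1P1 was at -3.03 (adjusted p = 0.00950), a value that rests on these few reads. GBP6 had 1 read in all, and GBP7, which overlaps GBP2 on the same strand, had 6. GBP2, GBP4 and GBP5 also overlap lncRNAs on the opposite strand. The kit keeps strand, but use of strand in the counting is not given in the sources used here, and antisense reads cannot be told apart from the members' own.

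The protein-coding genes on either side of the cluster were examined because the 5 members share a locus. Of 12 neighbouring protein-coding genes, 11 were tested and 0 were past the adjusted p in either direction in edgeR. At an unadjusted p below 0.05, 3 were lower and 0 higher. The share of all genes tested at that looser level was not computed, so this count has no background. At the adjusted p, DESeq2 gave 0 lower, the edgeR fit to every gene with at least 1 read gave 1, and leaving out TFAM-OE-labelled library 3 gave 3. Their median log2 fold change was -0.16. On the GBP3 side, RBMXL1 was at -0.54 (edgeR adjusted p = 0.106), CCBL2 at 0.08, GTF2B at -0.14, PKN2 at -0.16 and LMO4 at 0.21. On the GBP5 side, LRRC8B was at -0.27, LRRC8C at -0.35 (edgeR adjusted p = 0.0950), LRRC8D at -0.20, ZNF326 at 0.20, ZNF644 at -0.46 and CDC7 at -0.09. HFM1 had too few reads. GBP2, in the middle of the cluster, was closer to these values than to those of GBP1 and GBP4 on either side of it.

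**Figure D4:**
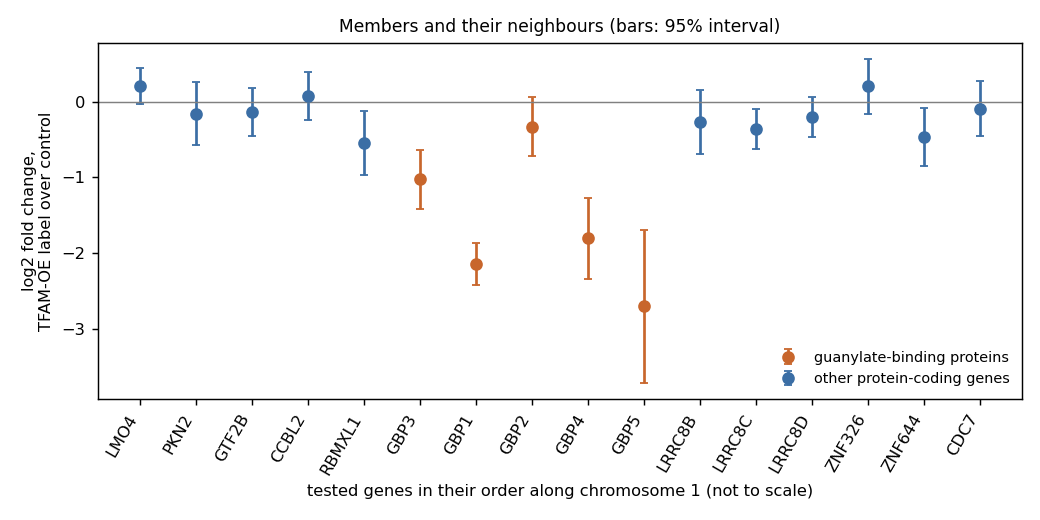
Log2 fold change with 95% intervals for tested genes in their order along chromosome 1, with members in orange and neighbours in blue. GBP3, GBP1, GBP4 and GBP5 lie at -1.02 or below, while GBP2 at -0.33 sits with the neighbours, which run from -0.54 to 0.21.

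The pathway that induces these genes was followed from ligand to target. In the lists that follow, lower and higher refer to the adjusted p alone, which 4.88% and 3.52% of all genes tested passed. All 4 tested interferon ligand genes were lower, with IFNL1, a type III interferon of epithelial cells, at a mean of 6.45 ± 1.65 CPM in control libraries and 0.432 ± 0.0809 CPM in the others (SD, n = 3; log2 fold change -3.87, edgeR adjusted p = 4.62e-05). IFNB1, IFNL2 and IFNL3 reached the minimum of 10 reads only through the control libraries. IFNL2 and IFNL3 are near-identical copies and their split of reads is uncertain. Interferon gamma itself, IFNG, had no entry among the deposited gene reads and so was not tested. Of 13 tested receptors and signal carriers 2 were lower, 1 of them by at least 2-fold, and 0 were higher, with a list median of -0.24. None of the 6 receptor genes or 3 Janus kinases passed the test, and IFNGR1, a chain of the interferon gamma receptor, was at -0.36 (edgeR adjusted p = 0.0584). Of the kinases, JAK2 was at -0.68 (edgeR adjusted p = 0.0906), TYK2 at 0.37 (0.0977) and JAK1 at -0.003 (0.993). At an unadjusted edgeR p below 0.05, for which no share of all genes was computed, 5 genes of this list were lower and 1 was higher. STAT2, a transcription factor of the type I and III response, had a mean of 53.4 ± 10.7 CPM in control libraries and 26.3 ± 3.18 CPM in the others (SD, n = 3), a log2 fold change of -1.02 (SE 0.16, edgeR adjusted p = 0.00556). The transcription factor IRF1, which acts on GBP promoters, was at -0.61 (edgeR adjusted p = 0.0238), and STAT3, the most abundant of the list, was at -0.02 (0.916). With DESeq2 and with edgeR's exact test 4 of the 13 were lower, and without TFAM-OE-labelled library 3 there were 5. There was 1 without control library 1, 2 or 3 or TFAM-OE-labelled library 2, and with the replicate number as a block.

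Among 6 feedback inhibitors, 2 were lower and 1 was higher. USP18, which blocks the type I receptor, was at -1.76 (edgeR adjusted p = 0.00104) and SOCS1, an inhibitor of Janus kinases, at -1.09 (0.0283). The phosphatase gene PTPN6 was at 1.01 (edgeR adjusted p = 0.00188), and SOCS3, the most abundant of the list, was at -0.32 (0.0724). Without TFAM-OE-labelled library 2, control library 1 or control library 2, and with the replicate number as a block, 1 of the 6 was lower.

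Of 13 tested interferon gamma targets other than the members, 9 were lower, 7 of them by at least 2-fold, and 0 were higher, with a median of -1.004. CXCL11, a chemokine for T cells that reached the minimum of 10 reads only through the control libraries, had the smallest p at -2.85 (edgeR adjusted p = 2.78e-04), and TAP1, a peptide transporter for antigen presentation, was the most abundant at -0.996 (0.00556). The 4 that did not pass were CIITA at -0.0012, WARS at -0.014, ICAM1 at -0.30 and IRF8 at -0.40. The list was not chosen to separate interferon gamma from type I and III interferons, and which of them these values reflect was not tested. Among 12 other large GTPases, only the interferon-induced MX1 and MX2 passed, at -2.74 and -3.06 (edgeR adjusted p = 1.18e-04 and 3.47e-05), and the list median was -0.02. The dynamins, atlastins and mitofusins, related GTPases not known for interferon induction, did not pass.

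The machinery that modifies and uses these proteins was taken last. None of the 6 tested prenylation genes passed edgeR's test in either direction, and 0 were lower under each of the 17 alternatives, DESeq2 included. At an unadjusted p below 0.05, for which no share of all genes was computed, 2 were lower and 1 higher. PGGT1B, a subunit of the enzyme that adds geranylgeranyl groups, was at -0.36 (edgeR adjusted p = 0.0936), and ICMT, which methylates the prenylated end, was at 0.19 (0.213). Of 11 tested partners and effectors 3 were lower and 0 higher, with a median of -0.12. These were APOL3, a lipoprotein that permeabilises bacteria coated by GBP1, at -1.77 (edgeR adjusted p = 0.00225), CASP1 at -1.66 (0.00525) and IL1B at -1.43 (0.0245). Under the 17 alternatives 2 to 4 of this list were lower. The count was 2 without control library 1, control library 2 or TFAM-OE-labelled library 2, and with the replicate number as a block. CASP4, the caspase that the GBP coat brings to lipopolysaccharide, was at -0.64 (edgeR adjusted p = 0.0671), and GSDMD, whose product forms pores after caspase cleavage, at 0.49 (0.0838). SFN, encoding a 14-3-3 protein of the type that binds GBP1, was at -0.08. Of 7 reference genes, HPRT1 passed at 0.35 and the median was 0.13, as was the value of PPIA, the most abundant.

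**Figure D5:**
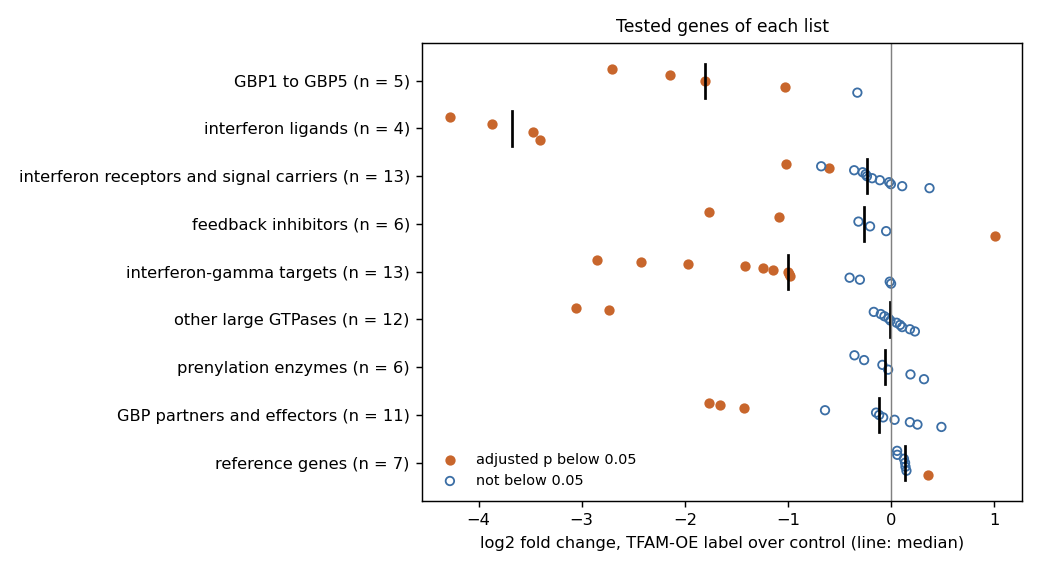
Log2 fold change of each tested gene, with filled points where the adjusted p is below 0.05 and a line at each list's median. The 5 members have a median of -1.81, the interferon gamma targets -1.004, and the prenylation, partner and other GTPase lists have medians near 0. Single partner and other GTPase genes lie far to the left, and no prenylation gene does.

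The genes whose profiles over the 6 libraries were nearest to a member were found by the root mean square difference of log2(CPM + 0.5), centred per gene, among 13187 genes with a mean of at least 50 reads. Nearest to GBP1 were IFIH1 (0.0865) and DDX58 (0.0979), which encode sensors of viral RNA, and HLA-F (0.0993), a non-classical MHC class I gene. Their log2 fold changes were -2.20, -2.04 and -2.05. Nearest to GBP2 were ITGAM (0.0513), an integrin subunit, and the unnamed transcripts CTD-2256P15.2 (0.0592) and AP001258.4 (0.0755). Like GBP2, these were low and did not pass the test. Genes chosen by their profile over these same libraries differ between the groups much as the member does. Their fold changes and test outcomes are therefore no separate result, for GBP1 or for GBP2.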

How the data were processed

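RNA-seq libraries of 6 A549 cultures were grouped by the labels into control and TFAM-OE. Per the study's methods, the authors trimmed reads with FASTX-Toolkit, aligned them to GRCh38 with TopHat2 allowing 4 mismatches and kept uniquely mapped reads. The deposited table of counts holds whole reads per gene, not normalized, and the deposited FPKM table holds levels per kilobase and 1000000 mapped fragments, normalized by the authors. Neither the counter nor its annotation and strand setting was stated.

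Counts were scaled by TMM and tested with edgeR 4.0.16 (glmQLFit and glmQLFTest, R 4.3.3) on all 6 libraries, for genes with a mean of at least 10 reads, with Benjamini-Hochberg adjustment over 16472 genes. The procedure was tested on simulated counts. DESeq2 1.42.0, edgeR's exact test, limma 3.58.1 (voom, and trend on log2(FPKM + 0.1) and log2(FPKM + 1)), other scalings and filters, a replicate block and each library left out were alternatives. Ratios between members were tested by exact permutation. Coordinates and transcripts came from GENCODE 44 (GRCh38) and promoters from RefSeq (GRCh38.p14). All 5 gene identifiers matched the annotation. Members and lists were chosen with earlier results of these data known. Outside the members, the text names all family genes and neighbours, the gene with the smallest p and the most abundant gene of each list, and the 3 nearest profiles of GBP1 and GBP2. Other list genes were named after their values were seen. Of the list of receptors and signal carriers, 1 gene is not reported here.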

Additional observations from a re-analysis of the deposited data

How the results depend on the processing

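Fold changes of the members and counts of calls were recomputed under 17 alternatives and the 10 ratios between members under 7, and none reversed. List medians, shares of family reads and nearest profiles were not recomputed. GBP1 kept its call in all 17, and GBP2 passed in none. On log2(FPKM + 1) GBP3, GBP4 and GBP5 were at -0.71, -0.40 and -0.36, still past the adjusted p but under a 2-fold difference on that scale, so that 1 member was called lower. Leaving out 1 library at a time gave GBP3 values from -1.15 to -0.91 and left 3 or 4 members called. For all genes, calls lower numbered 344 in the reported fit, 108 on log2(FPKM + 1), 528 with every gene with at least 1 read, and 180 to 430 with 1 library left out. Calls higher numbered 74, with 44 on log2(FPKM + 0.1), 11 on log2(FPKM + 1), 129 with every gene with at least 1 read, and 21 to 114 with 1 library left out. Lower counts were reached without control 1 (183 and 21), control 2 (180 and 29) and TFAM-OE 2 (207 and 41), and the highest count of genes higher without TFAM-OE 3 (114). The cause of these shifts was not tested.

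The libraries share replicate numbers 1 to 3, but same-numbered libraries did not deviate together (correlations of -0.298, 0.0327 and -0.355 over genes). Of the 3 controls, 1 correlated best with its own number, and of the TFAM-OE libraries 0 did, so the numbers are taken as names only. The highest correlations were across numbers, at 0.333 for control 3 with TFAM-OE 1 and 0.333 for control 1 with TFAM-OE 3. The replicate block does not model these crossed pairs, and their cause was not tested. With 3 libraries per group, such correlations cannot settle whether libraries were paired. With the replicate block GBP3 was at -1.03 (edgeR adjusted p = 0.0596), and 229 genes were called lower and 38 higher. The block kept the calls of GBP1, GBP4 and GBP5.

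Depth limits GBP5, with 4 reads in each library labelled TFAM-OE, and GBP6, GBP7 and GBP1P1, which were not tested in the reported fit.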
